A study of Mus musculus with 9 samples.

Results

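Cytochrome P450 family 4 enzymes of the Cyp4a and Cyp4f subfamilies were followed in mouse liver. The group held 9 genes, taken by gene symbol from the 17442 genes of the deposited table: Cyp4a10, Cyp4a12a, Cyp4a12b, Cyp4a14, Cyp4a31, Cyp4a32, Cyp4f13, Cyp4f14 and Cyp4f15. All 9 were in the table and all passed the filter on low values, a mean of at least 10 normalised reads over the livers. Members were chosen by symbol and by presence in the table, with the fold changes of this genotype comparison already known, so the genotype values below describe the genes and support no further statement. The livers came from male mice of strain C57BL/6, of which 5 were Msr1-/- and 4 were Wt. Both groups carried the disease label NAFLD (non-alcoholic fatty liver disease) and had eaten a high fat-cholesterol diet for 16 weeks, and the study asked what Msr1, a scavenger receptor of macrophages, does in that disease. The labels give neither the ages of the mice nor how the Msr1 allele was made, and no group on another diet was analysed here. Each library came from snap-frozen liver of 1 animal.

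Enzymes of this family add a hydroxyl group to the last carbon of a fatty acid, a step called omega-hydroxylation. Alcohol and aldehyde dehydrogenases then turn the product into a dicarboxylic acid, which peroxisomes shorten. In mouse liver Cyp4a10 and Cyp4a14 are textbook targets of the fatty acid sensing nuclear receptor PPAR alpha, Cyp4a12a is a male-biased arachidonic acid hydroxylase, and Cyp4f enzymes act on long-chain fatty acids and on lipid mediators such as leukotrienes.

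By the GENCODE M21 annotation of GRCm38 (mm10), the 6 Cyp4a genes form 1 cluster at chr4:115299046-115621602 and the 3 Cyp4f genes lie at chr17:32685627-32947402. Along chromosome 4 the order is Cyp4a12a, Cyp4a12b, Cyp4a14, Cyp4a10, Cyp4a31 and Cyp4a32. Cyp4a14 is on the minus strand and the other 5 are on the plus strand, so that Cyp4a14 and Cyp4a10 are transcribed away from each other with their near ends 22122 bases apart. RefSeq promoter sequence (GRCm38.p6) was matched for 4 of the 9 genes, Cyp4a32, Cyp4f15, Cyp4f14 and Cyp4f13. The stretch from 250 to 51 bases before each start is shown to compare the upstream sequence of 1 Cyp4a gene with that of the 3 Cyp4f genes. Each is printed in the direction of its gene. Capitals mark CCAATC, the core of a CCAAT box. All these matches lie on the strand opposite to the printed one, so the motif reads GATTGG here. The windows are chr4:115600688-115600887 on the plus strand for Cyp4a32, chr17:32685409-32685608 on the plus strand for Cyp4f15, chr17:32917407-32917606 on the minus strand for Cyp4f14 and chr17:32947412-32947611 on the minus strand for Cyp4f13.
Cyp4a32: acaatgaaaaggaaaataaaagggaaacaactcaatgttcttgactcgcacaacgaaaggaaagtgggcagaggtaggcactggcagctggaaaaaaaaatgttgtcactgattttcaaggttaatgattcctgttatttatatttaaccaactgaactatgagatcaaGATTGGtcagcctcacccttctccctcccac
Cyp4f15: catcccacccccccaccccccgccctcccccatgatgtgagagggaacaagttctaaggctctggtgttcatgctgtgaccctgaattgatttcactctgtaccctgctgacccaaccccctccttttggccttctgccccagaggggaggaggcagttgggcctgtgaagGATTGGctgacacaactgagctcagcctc
Cyp4f14: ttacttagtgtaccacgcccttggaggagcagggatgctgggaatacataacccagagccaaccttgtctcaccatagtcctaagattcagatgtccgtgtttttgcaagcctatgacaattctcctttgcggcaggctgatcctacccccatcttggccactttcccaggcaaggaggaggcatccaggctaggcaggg
Cyp4f13: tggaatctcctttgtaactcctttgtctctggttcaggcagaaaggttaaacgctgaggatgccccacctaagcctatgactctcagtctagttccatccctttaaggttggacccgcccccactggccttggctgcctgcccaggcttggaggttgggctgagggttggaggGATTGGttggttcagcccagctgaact

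Cyp4a32, Cyp4f15 and Cyp4f13 held CCAATC from 81, 79 and 77 bases before the start. Cyp4f14 held no CCAATC in this window. A window of 209 bases, ending 42 bases before the start and tried after the first result was seen, held it from 51 bases before the start of Cyp4f14, and 12.2% of all windows of that length held it. Of 32851 RefSeq promoter windows of 200 bases, 11.4% held CCAATC on either strand. The motif was picked after these sequences had been read. A direct repeat of AGGTCA with any 1 base between the copies, the element to which PPAR alpha binds with its partner RXR, had no match on either strand in the 4 windows, nor did AGGTCA alone, which the repeat contains. Over all windows of 200 bases the shares were 0.0244% for the repeat and 11.4% for AGGTCA alone. Only these exact letters were sought, and with so rare a repeat 4 windows were all but certain to hold none. Cyp4a10 and Cyp4a14 were not among the 4 genes, and no conclusion on binding sites is drawn.

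Values are read counts per gene that the authors scaled with DESeq2 size factors, called normalised reads here. The 9 libraries held 15006773 to 18238932 reads in genes. Msr1 itself had 157, 153, 209, 186 and 172 normalised reads in the Msr1-/- livers, against 256, 202, 460.5 and 194 in the Wt livers. Its groups overlapped, and the log2 difference of -0.58 had a two-sided exact permutation p of 0.0476, where 0.0159 is the smallest possible p with 5 and 4 livers. Without Wt 3, the highest liver, it was -0.31 with an exact permutation p of 0.107. Reads were summed over the whole gene, so these values do not show which part of the gene they came from. Wt 3 stood apart from the other 8 livers on the first principal component, at -88.7 against -8.3 to 27.6, so values without it are given beside results that it moved. In bulk liver, fewer cells of a type and less RNA per cell cannot be told apart.

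Cyp4a14 and Cyp4a10 had the largest log2 fold changes of the 9 genes. The limma fit on log2(value + 1) gave a positive log2 fold change for 8 of 9 genes, with a median of 0.55 against 0.02 over all 12937 genes tested. A gene was called at a Benjamini-Hochberg adjusted p below 0.05. By limma 1 gene was called higher in Msr1-/- livers, Cyp4a10, and 0 were called lower, where 0.665% of all genes tested were called higher, 0.703% lower and 1.37% in either direction. Without Wt 3, limma called Cyp4a10 and Cyp4a14 higher, and 0 lower, where 2.59% of genes were called higher and 2.32% lower, and the median log2 fold change of the 9 genes was 0.31. DESeq2 on all 9 livers also called 2, Cyp4a10 and Cyp4a32, against 2.37% of all genes called higher and 3.60% lower. By edgeR Cyp4a10 was the 1 member called, against 0.572% of all genes called higher and 0.858% lower. At an unadjusted limma p below 0.05, 5 of the 9 genes were higher and 0 lower, where 7.30% of all genes tested were higher and 15.3% passed in either direction at that threshold, the shares against which the unadjusted counts of other lists stand too. All 5 Msr1-/- livers were above all 4 Wt livers for Cyp4a10 and Cyp4a32, as for 3.30% of genes tested, and groups did not overlap in either direction for 7.29%. The summed level of the 9 genes was 18215 to 24554 normalised reads in Msr1-/- livers and 13378 to 15045 in Wt livers, without overlap.

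**Figure D1:**
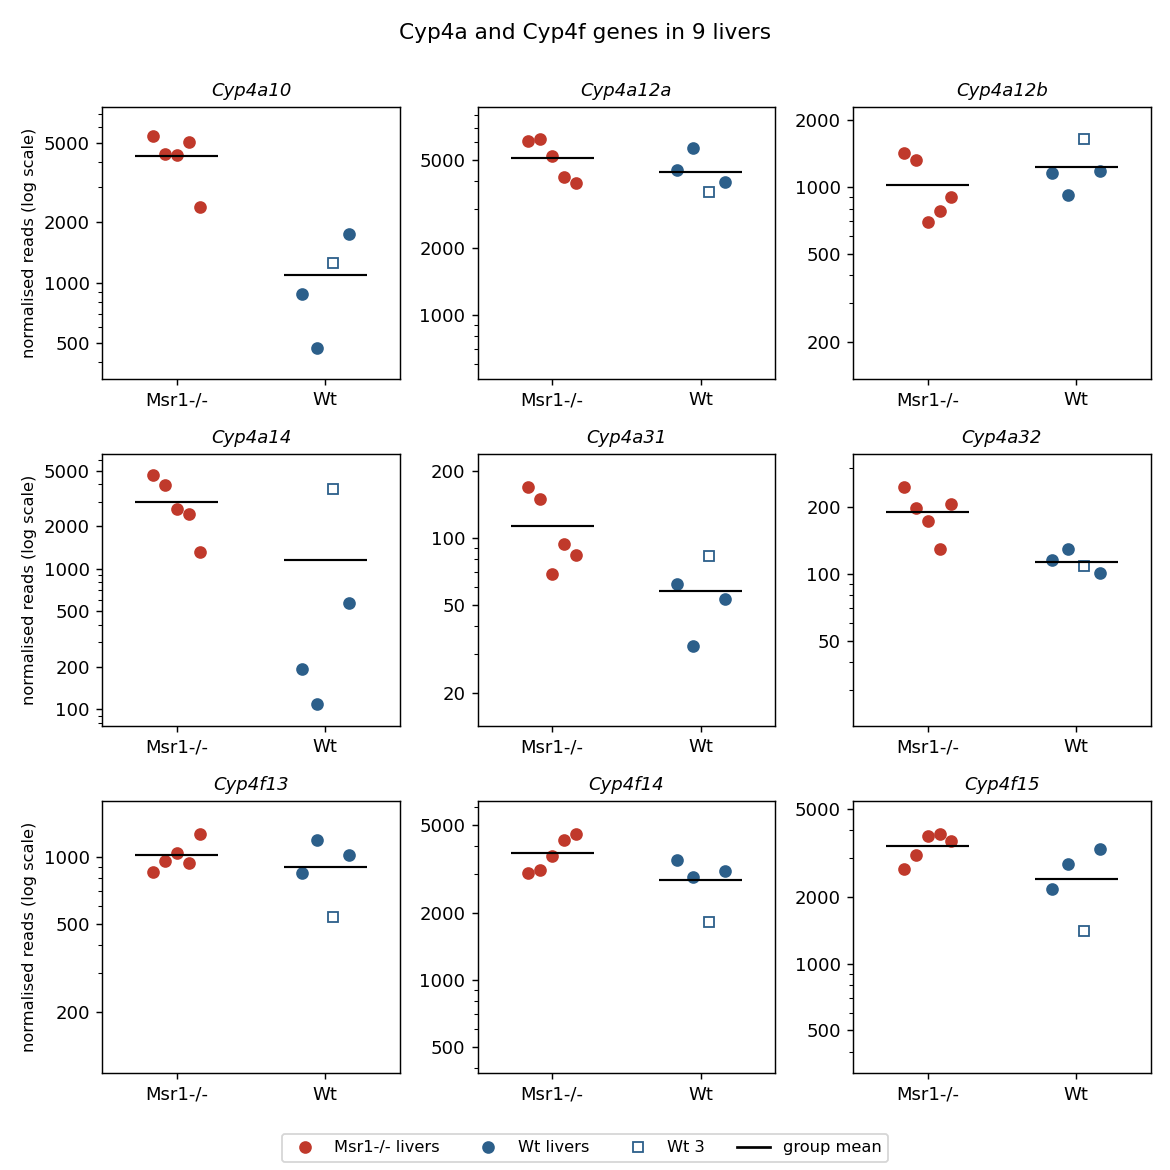
Normalised reads (log scale) of the 9 Cyp4a and Cyp4f genes, with 1 point per liver and a line at the group mean. Msr1-/- livers are red, Wt livers blue, and Wt 3 is an open square. Cyp4a10 shows no overlap between groups, and Wt 3 lies among the Msr1-/- livers for Cyp4a14 and lowest of all for the 3 Cyp4f genes.

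Cyp4a10, a lauric acid hydroxylase and a common readout of PPAR alpha activity, had 5392, 4402, 4367, 5033 and 2386 normalised reads in the Msr1-/- livers and 880.1, 474, 1253 and 1759 in the Wt livers. The lowest Msr1-/- liver, number 5, was still above the highest Wt liver, number 4. Means were 4316 ± 1162 in Msr1-/- livers and 1091 ± 547 in Wt livers (SD, n = 5 and 4). The log2 fold change was 2.09 (SE 0.35), or 4.24-fold, with an adjusted p of 0.0226 by limma. Wt 3 was not unusual for this gene, and without it the log2 fold change was 2.20 with a limma adjusted p of 0.00791. The limma call was lost when any 1 of Msr1-/- 1, 2, 3 or 4 or of Wt 1 was left out, at adjusted p of 0.0629 to 0.0715.

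Cyp4a14, its divergently transcribed neighbour and also a medium-chain fatty acid hydroxylase, had 4683, 3922, 2663, 2451 and 1311 normalised reads in the Msr1-/- livers, and 192, 109, 3708 and 572 in the Wt livers. Wt 3 lay inside the Msr1-/- range, while the other 3 Wt livers were below every Msr1-/- liver. The log2 fold change over all livers was 2.58 (SE 0.84), with a limma adjusted p of 0.168. Without Wt 3 the means were 3006 ± 1318 in Msr1-/- livers and 291 ± 247 in Wt livers (SD, n = 5 and 3), the log2 fold change was 3.58 (SE 0.49) and the limma adjusted p was 0.00358. The call on this gene therefore rested on 1 liver, and edgeR and DESeq2 on all 9 livers gave log2 fold changes of 1.38 and 1.39 with adjusted p of 0.501 and 0.532.

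Cyp4a31 and Cyp4a32 are close relatives of Cyp4a10 at the right end of the cluster and were at 125 and 45.2 normalised reads per kilobase of exon in Msr1-/- livers (Cyp4a32 and Cyp4a31, mean of 5), where Cyp4a10 was at 2046. Cyp4a32 had 248, 199, 173, 129.8 and 207 normalised reads in the Msr1-/- livers and 115, 129.77, 109 and 100.6 in the Wt livers. The groups did not overlap, but Msr1-/- 4 and Wt 2 were all but equal. Its log2 fold change of 0.72 (SE 0.18) had an adjusted p of 0.0806 by limma and of 0.00805 by DESeq2. Cyp4a31 had 171, 149.7, 68.5, 93.5 and 84.2 normalised reads in the Msr1-/- livers and 62.0, 32.7, 83.2 and 53.1 in the Wt livers. Here Msr1-/- 1 and 2 were high and Msr1-/- 3 lay below Wt 3. The log2 fold change was 0.95 (SE 0.32) with a limma adjusted p of 0.185.

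These relatives share sequence, which limits how reads can be assigned. Of the 50-base stretches of the Cyp4a32 exons, 46.8% also occurred in transcripts of other genes, mostly Cyp4a10. For Cyp4a10 the share was 30.5%, mostly with Cyp4a32, and for Cyp4a31 it was 21.8%. Cyp4a14 shared 0.245%, so its values are the least open to such mixing within the Cyp4a group. Because Cyp4a10 had far more reads than Cyp4a32, the values of Cyp4a31 and Cyp4a32 are uncertain, and how much of their difference came from Cyp4a10 reads was not tested. With Cyp4a10, Cyp4a31 and Cyp4a32 summed, the log2 fold change was 1.94 with a limma adjusted p of 0.0191.

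**Figure D2:**
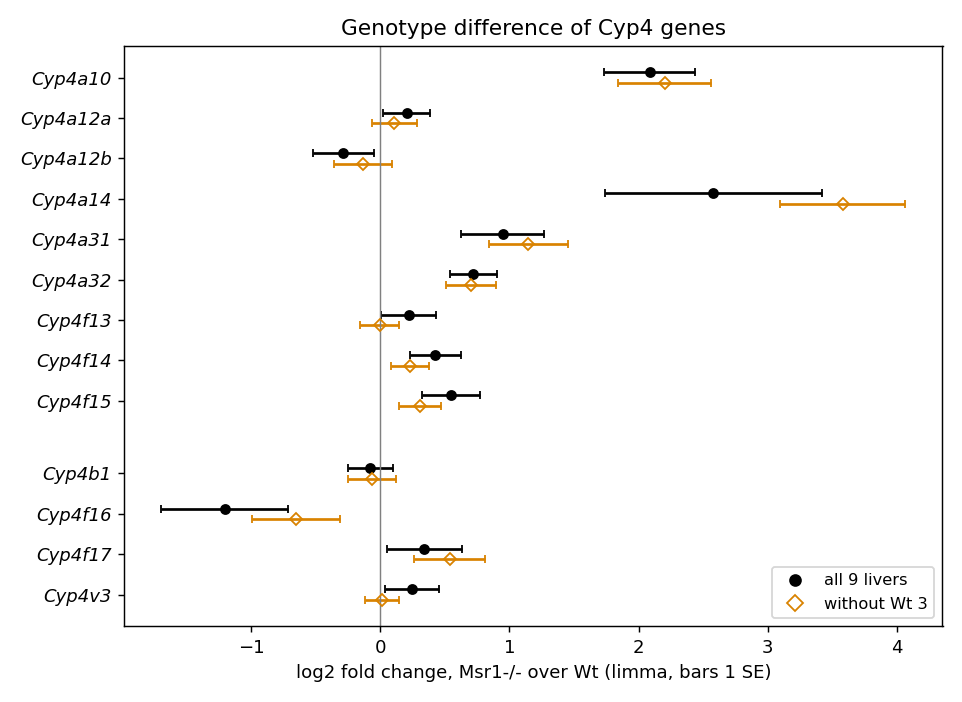
Log2 fold change of Msr1-/- over Wt livers by limma on log2(value + 1), with bars of 1 SE, for the 9 genes and, below them, 4 other Cyp4 genes. Black points use all 9 livers and orange diamonds leave out Wt 3. Without Wt 3 the value of Cyp4a14 was 3.58, against 2.58 with it, and Cyp4f13 was at 0 within its SE.

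Cyp4a10 and Cyp4a14 also differed from each other in pattern. The ratio of Cyp4a14 to Cyp4a10 normalised reads was 0.869, 0.891, 0.61, 0.487 and 0.549 in the Msr1-/- livers, against 0.219, 0.229, 2.96 and 0.325 in the Wt livers. Wt 3 was the only liver of the 9 with more reads for Cyp4a14 than for Cyp4a10. Deviations of the 2 genes from their group means (log2 scale) correlated at r = 0.70 over 9 livers and r = 0.94 over 8 livers without Wt 3, values given as a description of livers that share the same libraries. Among the other genes, Cyp4a12b and Cyp4a31 deviated together at r = 0.95.

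**Figure D3:**
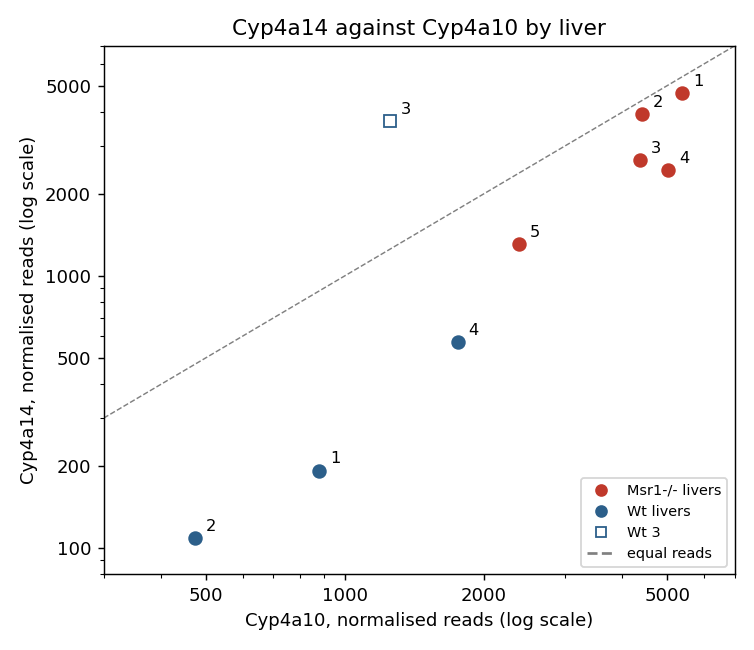
Normalised reads of Cyp4a14 against Cyp4a10 in each liver, both on log scales, with animal numbers beside the points and a dashed line at equal reads. The 5 Msr1-/- livers lie at the upper right under the line, Wt 1, 2 and 4 at the lower left, and Wt 3 above the line at a ratio of 2.96.

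Cyp4a12a and Cyp4a12b, the male-biased members, were not called in either direction. Cyp4a12a had 6064, 6189, 5211.5, 4186 and 3925 normalised reads in the Msr1-/- livers and 4494, 5673, 3584 and 3969 in the Wt livers. The 2 ranges covered nearly the same span, and the log2 fold change was 0.20 (SE 0.18) with a limma adjusted p of 0.673, and 0.11 without Wt 3. Cyp4a12b had 1429.6, 1320.1, 697, 783 and 902 normalised reads in the Msr1-/- livers and 1159, 923, 1640.4 and 1188 in the Wt livers. Msr1-/- 3, 4 and 5 lay below all Wt livers, and Msr1-/- 1 and 2 lay above all Wt livers except Wt 3, at a log2 fold change of -0.29 (SE 0.24) and a limma adjusted p of 0.644, and at -0.14 without Wt 3. The pair shared 48.9% and 49.4% of their 50-base stretches, so the split between them is uncertain, and their summed reads had a log2 fold change of 0.10.

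Per kilobase of exon, the make-up of the Cyp4a pool differed between the groups. Cyp4a12a made up 36.3 ± 4.5% of the summed Cyp4a level in Msr1-/- livers and 55.9 ± 17.7% in Wt livers (SD, n = 5 and 4). Wt 3, at 34.5%, lay inside the Msr1-/- range of 31.4% to 42.6%. Without Wt 3 the Wt share of Cyp4a12a was 63.0 ± 12.9% (SD, n = 3). Cyp4a10 made up 34.6 ± 5.6% in Msr1-/- livers and 15.2 ± 7.6% in Wt livers, and its ranges of 29.8% to 43.3% and 7.26% to 25.5% did not overlap. For Cyp4a14 the share was 18.7 ± 4.0% in Msr1-/- livers and 11.0 ± 15.0% in Wt livers, or 3.53 ± 2.82% in the 3 Wt livers other than Wt 3. Cyp4a12b made up 5.12% to 9.90% in Msr1-/- livers and 12.5% to 16.5% in Wt livers. Shares of 1 pool are tied to each other, and Cyp4a12b took a smaller share without a called difference in its own level. By this per-kilobase level Cyp4a12a was the highest of the 9 genes in all 4 Wt livers and in Msr1-/- 2 and 3. Cyp4a10 was highest in Msr1-/- 1 and 4, and Cyp4f14 in Msr1-/- 5. Some ranks were close, with Cyp4a10 at 2557 and Cyp4a12a at 2504 in Msr1-/- 1, and at 2071 and 2152 in Msr1-/- 3. Shared 50-base stretches differ between the genes, at 48.9% for Cyp4a12a, 30.5% for Cyp4a10 and 0.245% for Cyp4a14. These shares and ranks are therefore uncertain.

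**Figure D4:**
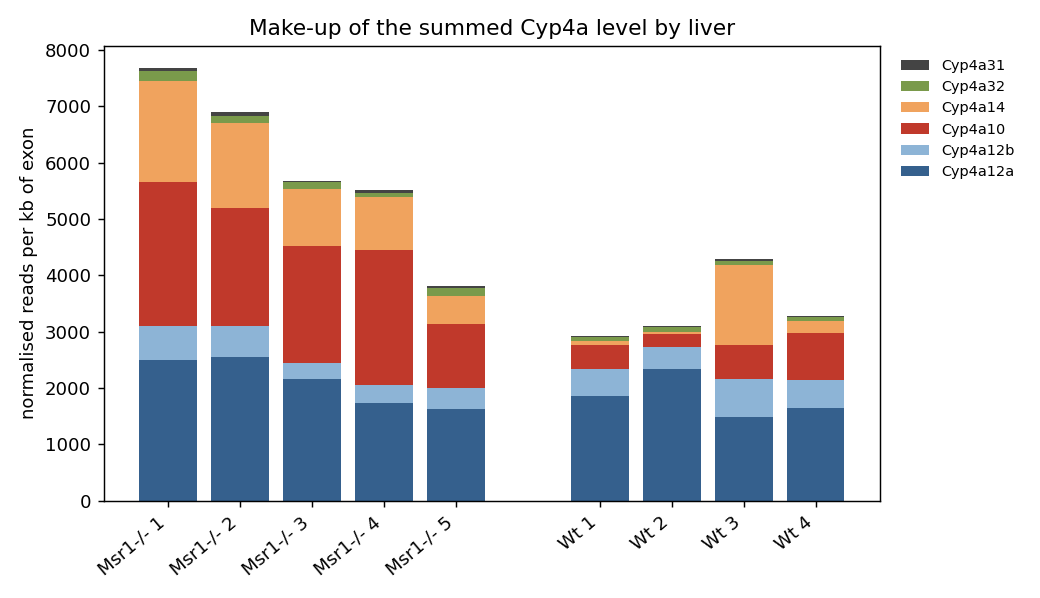
Stacked levels of the 6 Cyp4a genes in each liver, in normalised reads per kilobase of exon. The dark blue Cyp4a12a block is of like height in both groups, the red Cyp4a10 block is taller in each Msr1-/- liver than in any Wt liver, and the orange Cyp4a14 block is tall in the Msr1-/- livers and in Wt 3.

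None of the 3 Cyp4f genes was called by limma, edgeR or DESeq2. Cyp4f15 had 2667, 3103, 3788, 3862 and 3561 normalised reads in the Msr1-/- livers and 2169, 2805, 1405 and 3297 in the Wt livers, with a log2 fold change of 0.55 (SE 0.23) and a limma adjusted p of 0.273, or 0.31 and 0.294 without Wt 3. Cyp4f14, an enzyme that hydroxylates leukotriene B4, had 3047, 3115, 3633.5, 4289 and 4563 normalised reads in the Msr1-/- livers and 3461, 2902, 1813 and 3081 in the Wt livers. In both genes Wt 3 was the lowest liver and the ranges overlapped. The log2 fold change of Cyp4f14 was 0.43 (SE 0.20) with a limma adjusted p of 0.338, or 0.23 and 0.407 without Wt 3. Cyp4f13 had 852, 963, 1047, 942.5 and 1274 normalised reads in the Msr1-/- livers and 845, 1191, 537 and 1025.5 in the Wt livers. Its limma log2 fold change of 0.22 (adjusted p 0.703) was -0.006 without Wt 3, so that its sign rested on that liver. Wt 3 was thus lowest for all 3 Cyp4f genes while it was highest of the Wt livers for Cyp4a14, Cyp4a12b and Cyp4a31. Each Cyp4f gene shared less than 3% of its 50-base stretches with other genes, at 2.70% for Cyp4f13, 2.72% for Cyp4f14 and 2.45% for Cyp4f15.

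Another 13 Cyp4 symbols were looked up. Of these, 7 were in the table and 4 passed the filter, Cyp4b1, Cyp4f16, Cyp4f17 and Cyp4v3, of which limma and edgeR called 0, with 1 lower at an unadjusted limma p below 0.05. DESeq2 called 1 lower and gave an adjusted p of 0.0451 for Cyp4f16 (log2 fold change -1.67), and without Wt 3 the values by DESeq2 were -0.79 and 0.263, so the call rested on that liver. Cyp4f16 had 10.6 to 19.0 normalised reads in Msr1-/- livers and 16.9 to 107 in Wt livers, with Wt 3 at 107. Cyp4f18, the leukotriene B4 hydroxylase of mouse neutrophils, had a mean of 9.50 over the livers and failed the filter. It had 5.30, 0.979, 3.65, 3.51 and 1.00 normalised reads in the Msr1-/- livers and 16.0, 14.8, 29.8 and 10.4 in the Wt livers, without overlap. Fitted by limma without the filter its log2 fold change was -2.33 (SE 0.46) with an adjusted p of 0.0387, where 0.487% of 17442 genes were called lower. The 3 neutrophil markers tested summed to 55.1 to 112 normalised reads in Msr1-/- livers and 129 to 275 in Wt livers (244 at most without Wt 3), with 0 of 3 called by limma (3 lower at an unadjusted p below 0.05), 1 called lower by edgeR and 3 by DESeq2, and their part in the Cyp4f18 difference was not tested. Cyp4f18 and Cyp4v3 lie on chromosome 8, as does Msr1, at 32.35 and 5.66 megabases from it. Next to the Cyp4a cluster, the nearest tested gene on the right, Cyp4b1, 3123 bases away, had a log2 fold change of -0.08 (limma adjusted p 0.896). On the left the nearest tested gene, Pdzk1ip1, 205147 bases away, was lower, at 8.07 ± 2.11 normalised reads in Msr1-/- livers and 27.1 ± 4.4 in Wt livers (log2 fold change -1.65, limma adjusted p 0.0236).

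Genes known to act with these hydroxylases were read from the same fit. Of 12 tested partners of omega-oxidation, all 12 had positive log2 fold changes and limma, edgeR and DESeq2 called 0. At an unadjusted limma p below 0.05, 3 were higher, Por, Aldh3a2 and Cyp2e1. Most of the list supplies electrons or oxidises the product, but Cyp2e1 and Cyp2u1 are themselves P450 enzymes. Without Wt 3, 10 of 12 were positive and the median log2 fold change was 0.14, against 0.22 with it. Among them Aldh3a2, the fatty aldehyde dehydrogenase that completes the dicarboxylic acid, had the liver pattern of Cyp4a14, with 17058, 14359, 12102, 11084 and 8859 normalised reads in the Msr1-/- livers and 5465, 3835, 17259 and 6494 in the Wt livers. Wt 3 was the highest of the 9 livers for Aldh3a2, and without it the log2 fold change was 1.27 with a limma adjusted p of 0.00967. A list of 23 genes was taken for the peroxisomal shortening of dicarboxylic acids, and some, such as Acsl1 and Slc27a4, act outside that step. Of these 23 genes, 20 had positive values, with a median of 0.43, and limma called 3 higher. The 3 were Acot3, Acot4 and Acot8, thioesterases that release acyl chains from coenzyme A. With each liver left out in turn, Acot3 and Acot4 were called by limma in 9 of 9 fits and Acot8 in 2, those without Wt 3 or Wt 4. Without Wt 3 the limma calls in this list were 10 higher and 1 lower, Nudt7, which is also in the list of male-biased genes.

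PPAR alpha (Ppara) had 644, 388.5, 546, 421 and 475 normalised reads in the Msr1-/- livers and 351, 293, 386 and 253 in the Wt livers. The groups did not overlap, though Msr1-/- 2 and Wt 3 nearly met, and the log2 fold change of 0.62 had a limma adjusted p of 0.112. Without Wt 3 the log2 fold change of Ppara was 0.71 with a limma adjusted p of 0.0375. Of the 13 tested genes for the receptor and its partners, limma and edgeR called 0 and DESeq2 called 1 higher, with 2 higher at an unadjusted limma p below 0.05. Without Wt 3 limma called 2 higher, 1 of them Ppara. Of 29 tested PPAR alpha targets outside omega-oxidation, 25 had positive values with a median log2 fold change of 0.48, and limma called 3 higher, among them G0s2 and Angptl4. The limma call on G0s2 was lost without any 1 of Msr1-/- 1, 3 or 4 or Wt 1 or 2, and that on Angptl4 without any 1 Msr1-/- liver or Wt 1 or 4. Without Wt 3 the limma calls were 10 higher and 0 lower. Cyp4a10, at 4.24-fold, had a larger fold change than G0s2 and Angptl4. G0s2, an inhibitor of triglyceride lipase, was at 2.49-fold, and Angptl4, an inhibitor of lipoprotein lipase, at 1.90-fold. Genes of other lists had larger fold changes than Cyp4a10, with Acot3 at 25.2-fold and the eicosanoid enzyme Cyp2c29 at 6.11-fold.

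**Figure D5:**
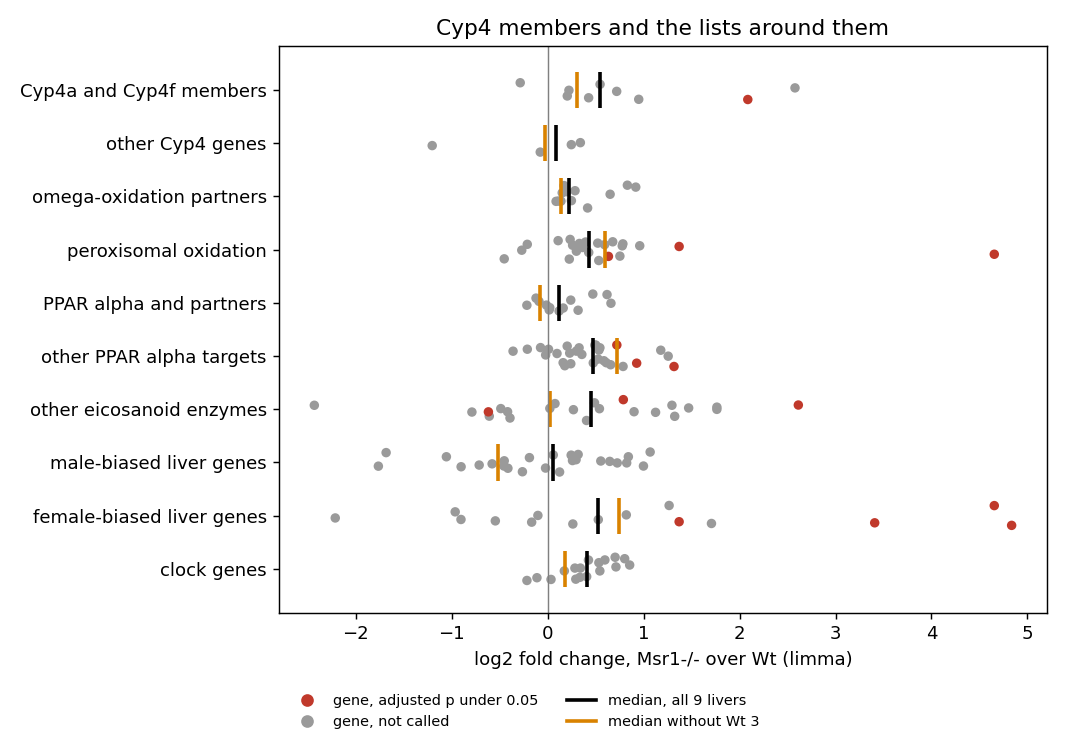
Log2 fold change of Msr1-/- over Wt livers by limma for the 9 Cyp4 genes and 9 other gene lists, with 1 point per tested gene. Red points had an adjusted p below 0.05, and bars mark list medians with all 9 livers (black) and without Wt 3 (orange). The median of the PPAR alpha targets was 0.48 with all livers, and that of the male-biased genes was -0.52 without Wt 3.

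Sex-biased and daily-rhythm genes were set beside the Cyp4a genes, since both kinds of regulation act on them in mouse liver. All mice were labelled male. Of 25 tested male-biased liver genes, limma and edgeR called 0 and DESeq2 1 lower, with 1 higher and 2 lower at an unadjusted limma p below 0.05 and a median log2 fold change of 0.06. Without Wt 3 limma called 1 higher and 7 lower with a median of -0.52. Cyp4a12a and Cyp4a12b were called in neither fit. Of 15 tested female-biased genes limma called 4 higher, of which Acot3 and Acot4 are also in the peroxisomal list. By edgeR 4 were called higher, and by DESeq2 5 higher and 1 lower. At an unadjusted limma p below 0.05, 5 were higher and 1 lower, and the median log2 fold change was 0.53. Without Wt 3 limma called 4 higher and 1 lower, with a median of 0.75. Of 17 tested clock genes limma, edgeR and DESeq2 called 0, with 1 higher at an unadjusted limma p below 0.05 and a median of 0.41. Without Wt 3 the clock median was 0.18 and 10 of 17 values were positive, where 15 were positive with it, and the labels give no hour of sampling. Of 22 tested eicosanoid enzymes outside the Cyp4 family, limma called Cyp2c29 and Hpgd higher and Ptgs1 lower, and without Wt 3 it called 6 higher and 2 lower. With each liver left out in turn, Cyp2c29 was called in 5, Hpgd in 3 and Ptgs1 in 2 of 9 fits, and calls were lost without Msr1-/- 1, 2 or 4 or Wt 2 for Cyp2c29, without any Msr1-/- liver or Wt 2 for Hpgd, and without any Msr1-/- liver, Wt 1 or Wt 2 for Ptgs1.

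Sums of cell type markers also differed between the livers. The 6 hepatocyte markers summed to 1697110 to 2348790 normalised reads in Msr1-/- livers and 1300730 to 2016790 in Wt livers (at least 1650500 without Wt 3). Of these 6, limma, edgeR and DESeq2 called 0. At an unadjusted limma p below 0.05, 1 was higher, Cyp2e1, which is also counted among the omega-oxidation partners. The 6 Kupffer cell markers all had negative log2 fold changes, with 1 called lower by limma, 1 by edgeR and 5 by DESeq2, and 6 lower at an unadjusted limma p below 0.05. They summed to 3391 to 4484 in Msr1-/- livers and 5192 to 11108 in Wt livers, where Wt 3 was the highest and the other 3 reached 7514. The 5 markers of lipid-associated macrophages were also all negative, with 0 called by limma or edgeR, 3 lower by DESeq2 and 3 lower at an unadjusted limma p below 0.05, and summed to 417 to 659 in Msr1-/- livers and 767 to 2994 in Wt livers, where 2994 was Wt 3 and the other 3 reached 886. Among stellate cell markers limma, edgeR and DESeq2 called 0 of 5, with 1 lower at an unadjusted limma p below 0.05, with sums of 3064 to 3704 in Msr1-/- livers and 3378 to 7916 in Wt livers, where 7916 was Wt 3 and the other 3 reached 3743, close to the highest Msr1-/- liver. By limma 1 of 4 lymphocyte markers was called lower, 0 of 4 endothelial markers (0 also by edgeR, DESeq2 or unadjusted p), and of the 2 tested cholangiocyte markers 1 was lower. Of 5 kidney tubule markers 0 were among the genes analysed. Each sum leans on its most abundant markers. Alb, at 978420 to 1718900 normalised reads, was the largest part of the hepatocyte sum in every liver. The same held for Dcn in the stellate sum and Spp1 in the lipid-associated macrophage sum. The part of these cell types in the Cyp4 differences was not tested.

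For each member with a mean of at least 100 normalised reads, the non-members whose deviations from the group means followed it most closely were sought among 8553 genes over the 9 livers. Cyp4a10 was followed by Slc17a8 at r = 0.97 and Cyp3a59 at r = 0.91. For Cyp4a14 these were Insig2 and Anxa5, both at r = 0.99, and at 0.99 and 0.97 without Wt 3. Cyp4a12a went with Aimp1 at r = 0.94, Cyp4a12b with Rcor1 at r = 0.96 and Cyp4a32 with Rev3l at r = 0.96. The closest genes were Men1 for Cyp4f13 (r = 0.99), Lipc for Cyp4f14 (r = 0.98) and Rtp3 for Cyp4f15 (r = 0.99). These are the highest of many correlations over few livers and are given as a description only.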

How the data were processed

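Liver RNA from 5 Msr1-/- and 4 Wt mice was sequenced with the TruSeq RNA Library Prep Kit v2, per the labels' protocols, with no strand setting stated. The authors aligned to mm10 with STAR, counted with HTSeq and scaled with DESeq2, per the submitters' processing notes, which give no versions. The deposited values are a signal, gene counts divided by size factors. All values were whole multiples (within 0.01 read) of what 1 read is worth, so read counts were recovered. No gene in the table had under 10 reads in total. The test was limma 3.58.1 (R 4.3.3, mean-variance trend) on log2(value + 1), genotype only, over 12937 genes with a mean of 10 or more, with Benjamini-Hochberg adjustment over all of them. On recovered reads, edgeR 4.0.16 and DESeq2 1.42.0 were alternatives. On simulated counts over 12937 genes, limma recovered 53% of 2-fold and 90% of 4-fold changes, and 4.67% of its calls were false.

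The members and lists were chosen with earlier results of these data known. Genes named were the 9 members, other Cyp4 genes, up to 4 per list with the smallest limma p, and the closest correlates. Pdzk1ip1 was named for its position, and 1 listed gene is not reported here. Shared 50-base stretches were counted in GENCODE M21 transcripts. Other settings were TMM and quantile scaling, pseudocounts of 0.5 and 5, no filter, a mean of 50 or more, array weights, a replicate block, paralogs summed and each liver left out. No liver was a copy of another (lowest chi-square per degree of freedom 21.6).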

Additional observations from a re-analysis of the deposited data

Results flagged for a closer look

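Among 94 sets of livers of 1 group, checked over 47 genes in both groups, 4 held a liver far from the others by Dixon's criterion, and chance gives about 1 in 20. The 4 are no more than that share of the 94 sets and are listed as a description only. The criterion was applied to normalised reads and was not tried on the log2 scale of the fits. Cyp4a14 was at 3708 normalised reads in Wt 3, against 108.7 to 572.1 in the other Wt livers. Por, the electron donor of the P450 enzymes, was at 3713 in Msr1-/- 1, against 5463 to 5651 in the other Msr1-/- livers. Angptl4 was at 1647 in Wt 2, against 809.2 to 943.7 in the other Wt livers. Hpgd, a prostaglandin dehydrogenase, was at 2150 in Msr1-/- 4, against 1942 to 1999 in the other Msr1-/- livers.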

How the results depend on the processing

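Of the 9 Cyp4 genes, limma called 1 higher in Msr1-/- livers. DESeq2 called 2 (Cyp4a10 and Cyp4a32), array weights 2 (Cyp4a10 and Cyp4a14) and summed paralogs 3, where Cyp4a10, Cyp4a31 and Cyp4a32 carry the same sum. Leaving out 1 liver at a time gave 0 to 2. Without Wt 3, tried after seeing the data with the count models, edgeR called 2 and DESeq2 4. TMM or quantile scaling, both other pseudocounts and both other filters left the count at 1, and 0 were called lower under any setting. Over all genes, 177 were called by limma, 773 by DESeq2, 531 with array weights and 36 to 629 with 1 liver left out; without Wt 3, edgeR called 656 and DESeq2 1059. Of the listed pathway genes 11 were called, 26 by DESeq2, 26 with array weights and 4 to 42 with 1 liver left out, and without Wt 3 edgeR called 40 and DESeq2 58. The lists were merged for these counts, with a gene of 2 lists counted once. The size of the merged list is not given, so these counts are not set against the share over all genes. The Msr1 difference was -0.72 to -0.31 with 1 liver left out, at exact permutation p of 0.0286 to 0.107. Directions turned for Cyp4a12b with paralogs summed (0.10), Cyp4f13 without Wt 3 (-0.00596, and -0.0168 by edgeR and -0.0103 by DESeq2), Cyp4b1 without Msr1-/- 2 (0.0593) and Cyp4f17 without Wt 1 (-0.00473). With 1 liver left out the log2 fold changes spanned -0.00596 to 0.376 for Cyp4f13, -0.143 to 0.0593 for Cyp4b1 and -0.00473 to 0.538 for Cyp4f17. The cause of these changes was not tested. With animal number as a replicate block, 8 genes, 0 of the 9 Cyp4 genes and 2 listed genes were called, Msr1-/- 5 having no partner. Same-numbered livers deviated together at r of -0.102 to 0.218, and 1 of 4 Msr1-/- and 1 of 4 Wt livers correlated best with its own number, so the numbers were not taken as pairs. Genes at low counts and close paralogs limit what depth allows, and limma at this size missed about as many 2-fold changes as it found on simulated data.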
